A study of Mus musculus with 12 samples.

Results

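The Bach, CNC and Maf transcription factors were followed in alveolar macrophages of mice that lack Bach1, Bach2 or both. The 9 genes were chosen by name: the repressors Bach1 and Bach2, the activators Nfe2l1 and Nfe2l2, the Nrf2 inhibitor Keap1, the small Maf genes Maff, Mafg and Mafk, and the large Maf gene Maf. They are 9 of the 20018 genes that could be named on the array. Alveolar macrophages were taken by bronchoalveolar lavage from female C57BL/6 mice aged 8 to 9 weeks and sorted by flow cytometry. The genotypes were Bach1/Bach2 double knockout (DKO), Bach2 knockout (Bach2 KO), Bach1 knockout (Bach1 KO) and wild type (WT), with 3 independent mice each and 1 array per mouse. RNA was hybridised to Agilent arrays in a single Cy3 channel. Neither the construction of the alleles nor the sort gates are described in the sources used here.

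CNC factors are basic leucine zipper proteins that bind DNA as heterodimers with small Maf proteins, at the antioxidant response element and the related Maf recognition element. Bach1 and Bach2 occupy these sites as repressors, and Bach1 leaves them when it binds heme. Nrf2, the product of Nfe2l2, and Nrf1, the product of Nfe2l1, activate genes from the same kind of site. Keap1 holds Nrf2 for degradation. Small Maf proteins have no activation domain of their own and serve as partners to both sides. Maf, also called c-Maf, is a large Maf factor with an activation domain, and in mice alveolar macrophages are known for a low level of it.

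The antioxidant response element core, written TGACNNNGC, was looked for on both strands in the 250 bases before the start of each gene in RefSeq (GRCm38.p6). Of 8 member genes with an entry, 4 held a match, in 4 of 14 windows. Of all 27025 genes listed 11.5% held one, as did 10.2% of all 32851 windows. The 4 windows with a match are shown. Mafg was higher in DKO and, with 2 of its 3 probes, in Bach2 KO, and Mafk was higher in Bach2 KO. Maff and Nfe2l2 hold the same letters and passed no test against WT with each array scaled on its 75th percentile. Nfe2l2 passed in Bach2 KO after quantile normalization. Maff passed in DKO and in Bach2 KO, both after quantile normalization and without scaling. Capitals mark the match. A match is a description of the letters, and binding was not measured.
Mafg: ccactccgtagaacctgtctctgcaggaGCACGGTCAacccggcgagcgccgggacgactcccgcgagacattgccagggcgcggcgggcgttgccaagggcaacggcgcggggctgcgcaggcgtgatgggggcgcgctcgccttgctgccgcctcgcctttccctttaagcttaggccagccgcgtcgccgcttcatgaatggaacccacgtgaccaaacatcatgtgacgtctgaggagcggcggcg
Mafk: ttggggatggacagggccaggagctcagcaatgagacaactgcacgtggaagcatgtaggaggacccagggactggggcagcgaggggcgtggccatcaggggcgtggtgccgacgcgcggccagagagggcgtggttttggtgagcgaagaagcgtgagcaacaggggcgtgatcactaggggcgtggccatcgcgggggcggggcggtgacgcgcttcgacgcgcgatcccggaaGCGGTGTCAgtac
Maff: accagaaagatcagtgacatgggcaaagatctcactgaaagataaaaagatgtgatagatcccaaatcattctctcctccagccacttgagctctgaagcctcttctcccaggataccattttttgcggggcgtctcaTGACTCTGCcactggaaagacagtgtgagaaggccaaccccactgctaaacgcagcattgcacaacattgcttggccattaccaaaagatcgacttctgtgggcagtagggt
Nfe2l2: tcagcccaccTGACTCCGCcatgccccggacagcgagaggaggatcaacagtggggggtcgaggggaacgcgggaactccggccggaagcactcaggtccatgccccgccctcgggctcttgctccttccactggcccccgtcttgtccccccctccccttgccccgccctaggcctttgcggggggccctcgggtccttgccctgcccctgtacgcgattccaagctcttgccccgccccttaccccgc

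The Mafg window is chr11:120633548-120633797 on the minus strand, and its match lies 222 to 214 bases upstream on the strand opposite to the gene. The Mafk window is chr5:139791286-139791535 on the plus strand, with an opposite-strand match 13 to 5 bases upstream of the start. The Maff window is chr15:79346371-79346620 on the plus strand, before the first of 3 annotated starts, and its match lies 112 to 104 bases upstream. The Nfe2l2 window is chr2:75704664-75704913 on the minus strand, with a match 240 to 232 bases upstream. The letters were not found in the windows of Bach1, Bach2, Keap1 and Nfe2l1, and Maf had no entry.

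The 9 genes have 12 probes on the array, 3 for Mafg, 2 for Bach2 and 1 for each of the others. Of these, 11 were tested, and the remaining Bach2 probe (A_55_P1956370) was well above background on none of the 12 arrays. Levels are log2 signals minus the 75th percentile of the array, so a level of 0 is the 75th percentile, and levels of different probes are not compared. Differences are log2 differences of group means with their standard errors, from limma's moderated test over all 30848 probes tested. The threshold was a p of 0.05 after Benjamini-Hochberg adjustment over the probes of a comparison. The share of spots well above background was 45.2% to 72.4% per array, and the precision is limited by the number of arrays. The 3 DKO arrays shared a slide of their own, scanned on a different day from the other 2 slides. Slide and genotype therefore cannot be told apart in any comparison with DKO. WT, Bach1 KO and 2 of the Bach2 KO arrays shared a slide.

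By the probe with the highest mean for each gene, 3 of the 9 genes changed in DKO against WT: Mafg and Maf were higher and Bach1 was lower. Mafk and Maf, both higher, were the 2 that changed in Bach2 KO against WT. None passed in Bach1 KO against WT, where 1 (Bach1) had an unadjusted p under 0.05 in limma's test. Over all 13810 named genes tested, 31.2% passed in DKO against WT (12.4% higher, 18.8% lower), 41% in Bach2 KO against WT (14.7% higher, 26.3% lower), and 0.0797% in Bach1 KO against WT (0.0145% higher, 0.0652% lower). With both directions counted together, the members' share was close to the background in DKO and below it in Bach2 KO. By direction, Bach2 KO had 2 of 9 higher beside 14.7%, and 0 lower beside 26.3%. Mafg is not counted in Bach2 KO, although 2 of its 3 probes passed there. Maf was tested only because it was well above background throughout DKO and Bach2 KO, where it was high. The median log2 difference of the 9 genes was 0.43 in DKO, 0.40 in Bach2 KO and 0.04 in Bach1 KO, beside -0.22, -0.28 and -0.08 over all named genes. The 3 comparisons use the same WT arrays.

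Between mutants, Nfe2l1, Mafg and Maf were higher in DKO than in Bach1 KO, against a background of 29.6% of named genes. In DKO against Bach2 KO only Bach1, deleted in the first and not in the second, passed, and it was lower; the background was 3.79%. In Bach2 KO against Bach1 KO, Bach1, Nfe2l1, Mafk and Maf were higher, with a background of 37.2%. The interaction asks whether the DKO difference is the sum of the single ones. None of the 9 genes passed it in limma's test, 1 (Mafk) had an unadjusted p under 0.05, and the background was 0.825%.

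**Figure D1:**
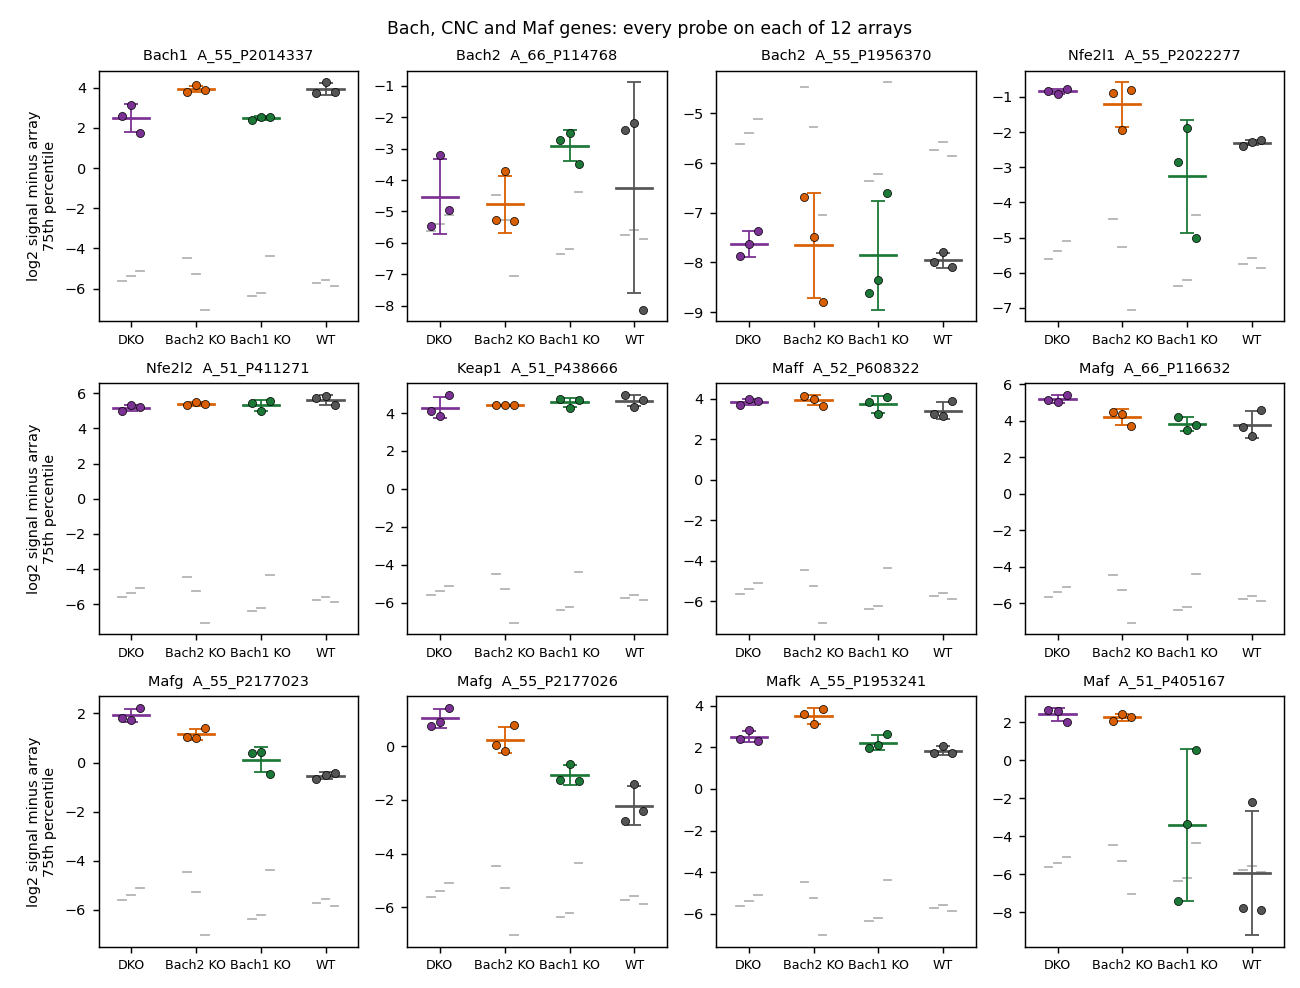
Level of each of the 12 probes on every array (points), as log2 signal minus the 75th percentile of the array, with group means and SD (lines and bars, n = 3) in the order DKO, Bach2 KO, Bach1 KO and WT. Grey ticks mark, for each array, the dimmest probe that was well above background. Mafg is highest in DKO with each of its 3 probes and Mafk is highest in Bach2 KO. Maf lies below the ticks on 2 WT arrays and on Bach1 KO replicate 1.

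Bach1 is the heme-sensitive repressor of the family and 1 of the 2 deleted genes. Its probe read 2.59, 3.13 and 1.72 in DKO, 3.81, 4.12 and 3.88 in Bach2 KO, 2.40, 2.55 and 2.53 in Bach1 KO, and 3.72, 4.28 and 3.77 in WT. Every array of the genotypes that lack Bach1 lay below every array of the other genotypes. The signal stayed well above background on all 12 arrays, and the sources used here do not say where the probe lies relative to the deleted part. The difference from WT was -1.44 ± 0.32 in DKO (adjusted p = 0.00644) and -1.43 ± 0.32 in Bach1 KO, where 7 probes in all were higher and 12 lower and the adjusted p was 0.21 (unadjusted p = 0.000802). Without scaling between arrays, the DKO difference was -1.005 and did not pass (adjusted p = 0.0791).

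Loss of Bach2 was not accompanied by a detected change of Bach1: Bach2 KO differed from WT by 0.01, with a 95% confidence interval of -0.69 to 0.70, and the sign turned with median scaling (-0.22). DKO differed from Bach1 KO by -0.01 (95% confidence interval -0.71 to 0.68), with a positive sign after quantile normalization (0.14) and without scaling (0.27). DKO was lower than Bach2 KO by 1.45 on the log2 scale (adjusted p = 0.0338), and this call was lost in 7 of 26 alternatives, with an adjusted p of up to 0.105. Bach2 KO was higher than Bach1 KO by 1.44 ± 0.32 (adjusted p = 0.00608), a call kept in all 27 alternatives, and by 1.47 within the slide that held both.

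Bach2 is the second Bach repressor, best known from lymphocytes, and the other deleted gene. Its tested probe (A_66_P114768) read -5.46, -3.19 and -4.95 in DKO, -5.29, -3.72 and -5.29 in Bach2 KO, -2.72, -2.51 and -3.47 in Bach1 KO, and -2.42, -2.18 and -8.13 in WT. WT replicate 3 was the lowest of the 12 arrays and, with Bach2 KO replicate 1, 1 of the 2 arrays not well above background. The DKO and Bach2 KO arrays lay below WT replicates 1 and 2. With all arrays, neither DKO (-0.29 ± 1.30, adjusted p = 0.885) nor Bach2 KO (-0.52 ± 1.30, adjusted p = 0.779) passed against WT, and both signs turned without scaling (0.15 and 0.17). Without WT replicate 3 the differences were -2.23 (adjusted p = 0.0478) in DKO and -2.46 (adjusted p = 0.0265) in Bach2 KO, so that 1 WT array decided this check of the deletion. Against Bach1 KO, Bach2 KO was lower on every array, by 1.87 ± 1.30 on the log2 scale, and did not pass (adjusted p = 0.292), while it passed without WT replicate 3 (adjusted p = 0.0396).

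Bach1 KO differed from WT in the Bach2 probe by 1.34 ± 1.30 (adjusted p = 1). Without WT replicate 3 this value was -0.60. No direction can be read for Bach2 in Bach1 KO.

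Nfe2l2 encodes Nrf2, the activator that Keap1 restrains. The levels were 5.001, 5.32 and 5.21 in DKO, 5.31, 5.51 and 5.36 in Bach2 KO, 5.44, 4.98 and 5.56 in Bach1 KO, and 5.75, 5.82 and 5.31 in WT. All groups overlapped, over a total range of 4.98 to 5.82. The differences from WT were -0.45 (95% confidence interval -0.92 to 0.02) in DKO, -0.23 (-0.70 to 0.24) in Bach2 KO and -0.30 (-0.77 to 0.16) in Bach1 KO, and none passed.

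The direction of the Nfe2l2 difference in Bach2 KO depended on the scaling: it was -0.46 with median scaling, 0.46 without scaling and 0.59 after quantile normalization, where it passed (adjusted p = 0.047). In DKO it was -0.60 with median scaling, -0.01 without scaling and 0.07 after quantile normalization.

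Nfe2l1 encodes Nrf1, which is bound to the endoplasmic reticulum and known for driving proteasome genes. Its probe read -0.85, -0.91 and -0.77 in DKO, -0.90, -1.94 and -0.80 in Bach2 KO, -2.86, -1.90 and -5.02 in Bach1 KO, and -2.39, -2.28 and -2.23 in WT. Bach1 KO replicate 3, the lowest, was not well above background, and all DKO and Bach2 KO arrays lay above all WT arrays. Against WT the differences were 1.46 ± 0.64 in DKO (adjusted p = 0.114), 1.09 ± 0.64 in Bach2 KO (adjusted p = 0.208) and -0.96 ± 0.64 in Bach1 KO (adjusted p = 1).

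Bach1 KO replicate 3 set the spread for the Nfe2l1 probe. Of all arrays it had the lowest share of spots well above background, 45.2%, beside 63.1% and 62.7% on the other Bach1 KO arrays. Without it, Nfe2l1 passed in DKO against WT (1.46 ± 0.38, adjusted p = 0.0168) and in Bach2 KO against WT (1.09 ± 0.38, adjusted p = 0.0443). Against Bach1 KO, Nfe2l1 was higher by 2.42 ± 0.64 in DKO (adjusted p = 0.0179) and by 2.05 ± 0.64 in Bach2 KO (adjusted p = 0.0306). The Bach2 KO call against Bach1 KO was lost without Bach1 KO replicate 3 (1.17, adjusted p = 0.0704), without Bach2 KO replicate 3 (1.84, adjusted p = 0.102) and within the shared slide (1.84, adjusted p = 0.169). The DKO call against Bach1 KO was lost without DKO replicate 1 (2.42, adjusted p = 0.0524) or DKO replicate 3 (2.38, adjusted p = 0.051), and with only these genotypes fitted (adjusted p = 0.0513). Without Bach1 KO replicate 3 it passed at a difference of 1.53.

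Keap1 is the adaptor that hands Nrf2 to a Cul3 ubiquitin ligase. It read 4.11, 3.83 and 4.93 in DKO, 4.43, 4.45 and 4.43 in Bach2 KO, 4.73, 4.29 and 4.69 in Bach1 KO, and 4.93, 4.34 and 4.71 in WT. The groups overlapped and no comparison passed. The differences from WT were -0.37 (95% confidence interval -0.98 to 0.24) in DKO, -0.23 (-0.84 to 0.39) in Bach2 KO and -0.09 (-0.70 to 0.52) in Bach1 KO. The value in Bach2 KO was -0.46 with median scaling and 0.38 after quantile normalization, so no direction is given.

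Mafg, the first of the small Maf genes, had 3 probes. The brightest (A_66_P116632) read 5.17, 5.03 and 5.43 in DKO, 4.49, 4.41 and 3.70 in Bach2 KO, 4.21, 3.49 and 3.80 in Bach1 KO, and 3.65, 3.15 and 4.59 in WT. Each DKO array lay above every other array, and the other genotypes overlapped. Probe A_55_P2177023 read 1.82, 1.74 and 2.23 in DKO, 1.02, 1.005 and 1.41 in Bach2 KO, 0.39, 0.43 and -0.47 in Bach1 KO, and -0.68, -0.49 and -0.43 in WT. Probe A_55_P2177026 read 0.76, 0.90 and 1.43 in DKO, 0.06, -0.16 and 0.79 in Bach2 KO, -1.27, -0.65 and -1.30 in Bach1 KO, and -2.78, -1.42 and -2.43 in WT. With these probes the group means came in the order DKO, Bach2 KO, Bach1 KO, WT, and the Bach2 KO arrays lay above all WT arrays as well.

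All 3 Mafg probes passed in DKO against WT, by 1.41 ± 0.36 (adjusted p = 0.0137), 2.46 ± 0.29 (adjusted p = 9.12e-05) and 3.24 ± 0.41 (adjusted p = 0.000141). They disagreed in Bach2 KO against WT. The differences there were 1.68 ± 0.29 (adjusted p = 0.00147) for A_55_P2177023 and 2.44 ± 0.41 (adjusted p = 0.00112) for A_55_P2177026, and 0.40 ± 0.36 (adjusted p = 0.408) for the brightest, which passed after quantile normalization (0.94, adjusted p = 0.0233). Within the shared slide, the differences of Bach2 KO from WT for the other 2 probes were 1.54 (adjusted p = 0.0213) and 2.16 (adjusted p = 0.0181).

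DKO was also above Bach1 KO with each Mafg probe, by 1.38 (adjusted p = 0.0164), 1.81 (adjusted p = 0.000923) and 2.10 (adjusted p = 0.0032). The call of the brightest probe was lost without Bach1 KO replicate 2 (adjusted p = 0.0506) or DKO replicate 3 (adjusted p = 0.0556). DKO against Bach2 KO gave 1.01, 0.79 and 0.80 and no call (adjusted p = 0.147, 0.167 and 0.31). Bach1 KO against WT gave 0.04, 0.65 and 1.14 and no call (adjusted p = 1, 0.877 and 0.666). The step from Bach1 KO to Bach2 KO passed with A_55_P2177023 (1.03 higher in Bach2 KO, adjusted p = 0.0208) and A_55_P2177026 (1.30, adjusted p = 0.0315), and both calls were lost within the shared slide (adjusted p = 0.124 and 0.18).

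Mafk, another small Maf gene, read 2.43, 2.81 and 2.32 in DKO, 3.63, 3.11 and 3.85 in Bach2 KO, 1.95, 2.10 and 2.66 in Bach1 KO, and 1.72, 2.08 and 1.74 in WT. The Bach2 KO arrays were the highest 3 of the 12, and the DKO arrays lay above WT and overlapped Bach1 KO. Mafk was higher in Bach2 KO than in WT by 1.68 ± 0.27 (adjusted p = 0.000959), 3.21-fold on the linear scale, and by 1.52 within the shared slide (adjusted p = 0.0134). It was higher in Bach2 KO than in Bach1 KO by 1.29 ± 0.27 (adjusted p = 0.00493). Both calls were kept in all 27 alternatives.

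In DKO, Mafk differed from WT by 0.67 ± 0.27 (adjusted p = 0.0916) and from Bach2 KO by -1.01 ± 0.27 (adjusted p = 0.075). The interaction was -1.40 ± 0.39, with an unadjusted p of 0.00394 and an adjusted p of 0.17. Mafk was lower on every DKO array than on every Bach2 KO array, and this difference passed after quantile normalization (-1.21, adjusted p = 0.0427) but not with the other scalings. DKO against WT passed without scaling (1.11, adjusted p = 0.0398).

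Maff, the last small Maf gene and known as inducible by stress, read 3.69, 3.97 and 3.86 in DKO, 4.14, 3.99 and 3.65 in Bach2 KO, 3.83, 3.24 and 4.07 in Bach1 KO, and 3.22, 3.13 and 3.87 in WT. The mutant genotypes overlapped each other, and WT replicate 3 lay within their range. The differences from WT were 0.43 ± 0.27 in DKO (adjusted p = 0.259), 0.52 ± 0.27 in Bach2 KO (adjusted p = 0.158) and 0.31 ± 0.27 in Bach1 KO (adjusted p = 1). The scaling decided the call: after quantile normalization Maff passed in DKO (0.73, adjusted p = 0.0258) and Bach2 KO (1.01, adjusted p = 0.00433), and likewise without scaling (0.87, adjusted p = 0.0237 and 1.21, adjusted p = 0.00313), but not with median scaling (0.28 and 0.29).

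Maf, the large Maf factor c-Maf, read 2.64, 2.62 and 2.01 in DKO, 2.06, 2.45 and 2.28 in Bach2 KO, -7.41, -3.33 and 0.55 in Bach1 KO, and -7.76, -2.16 and -7.88 in WT. The DKO and Bach2 KO arrays lay in a narrow band above every other array. The probe was well above background on 2 of 3 Bach1 KO arrays and on 1 of 3 WT arrays, so the size of a difference rests on readings below background. It passed the filter only through DKO and Bach2 KO, where it was high. The fitted differences from WT were 8.36 ± 1.78 in DKO (adjusted p = 0.00531) and 8.20 ± 1.78 in Bach2 KO (adjusted p = 0.00504), and both calls were kept in all alternatives run, with values of 5.88 to 10.2 and 5.68 to 10.1. Among these alternatives was the one with no filter on dim probes.

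DKO and Bach2 KO were not distinguished in Maf (0.16, 95% confidence interval -3.73 to 4.05), and the sign turned without scaling (-0.10). The Bach1 KO arrays lay far apart, and Bach1 KO did not differ from WT by the test (2.54 ± 1.78, adjusted p = 1). DKO was higher than Bach1 KO by 5.82 (adjusted p = 0.0338) and Bach2 KO by 5.66 (adjusted p = 0.0313). These calls were lost in 5 and 6 of the alternatives, among them those without Bach1 KO replicate 1, which gave 3.81 (adjusted p = 0.118) and 3.66 (adjusted p = 0.112).

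**Figure D2:**
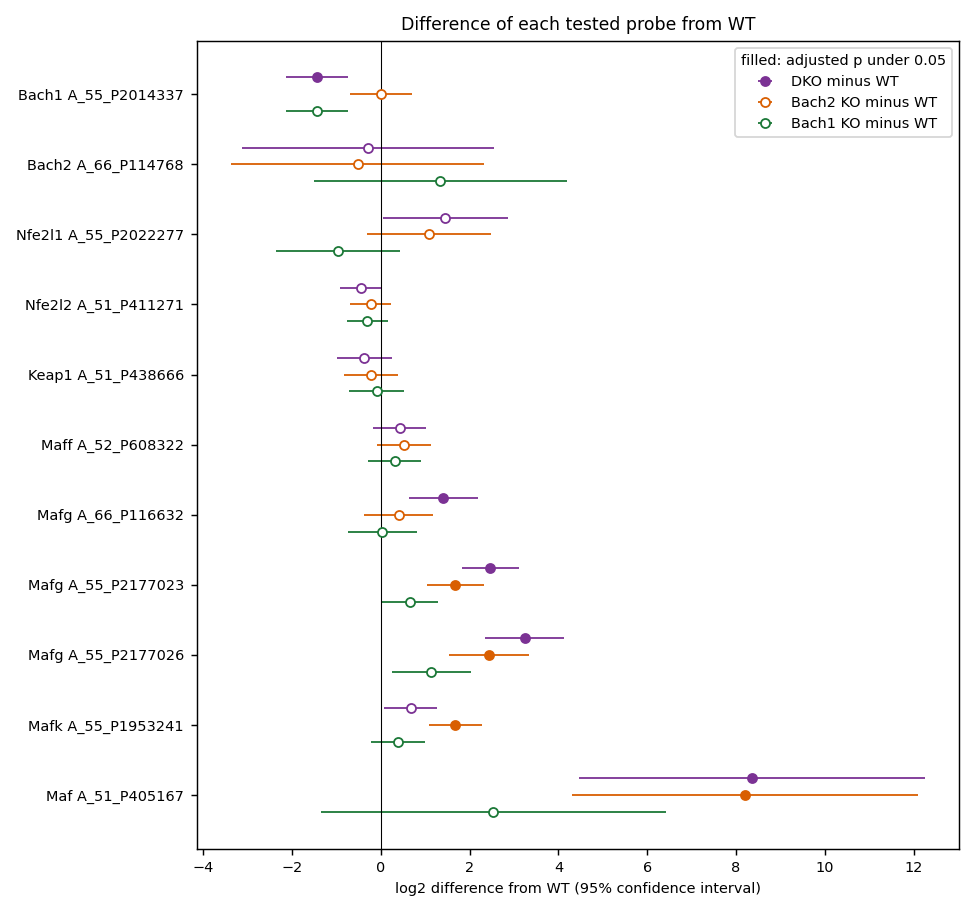
Log2 difference from WT of each tested probe in DKO, Bach2 KO and Bach1 KO, with 95% confidence intervals; filled points passed at an adjusted p under 0.05. All 3 Mafg probes and Maf are filled on the higher side in DKO and Bach1 on the lower side, while no Bach1 KO point is filled.

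The order of the levels showed few steps between neighbouring genotypes that passed the test. These were the step between Bach2 KO and Bach1 KO for Maf and for 2 of the Mafg probes. No other step passed the test. Some of these steps still separated the genotypes on every array, as did Bach1 KO below WT for Bach1 (a step of 1.43, adjusted p = 0.21), DKO below Bach2 KO for Mafk (1.01, adjusted p = 0.075) and DKO above Bach2 KO for the brightest Mafg probe (1.01, adjusted p = 0.147).

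Because the share of probes called higher moved with the scaling between arrays, directions near 0 are read with it. In Bach2 KO against WT 3970 probes were higher and 6792 lower (36.9% higher), and the share was 48.1% after quantile normalization and 71.6% without scaling. The median over all probes was -0.24, against -0.10 after quantile normalization, -0.47 with median scaling and 0.46 without scaling. In DKO against WT 42.7% of the calls were higher, and 66.4% without scaling; the median was -0.22, against -0.07, -0.37 and 0.22 in the same order. Without scaling the share was 59.4% instead of 43.9% in DKO against Bach1 KO, 22.5% instead of 39.9% in DKO against Bach2 KO, and 66.5% instead of 38.9% in Bach2 KO against Bach1 KO (49% after quantile normalization). For the interaction it was 2.13% instead of 14.7%.

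**Figure D3:**
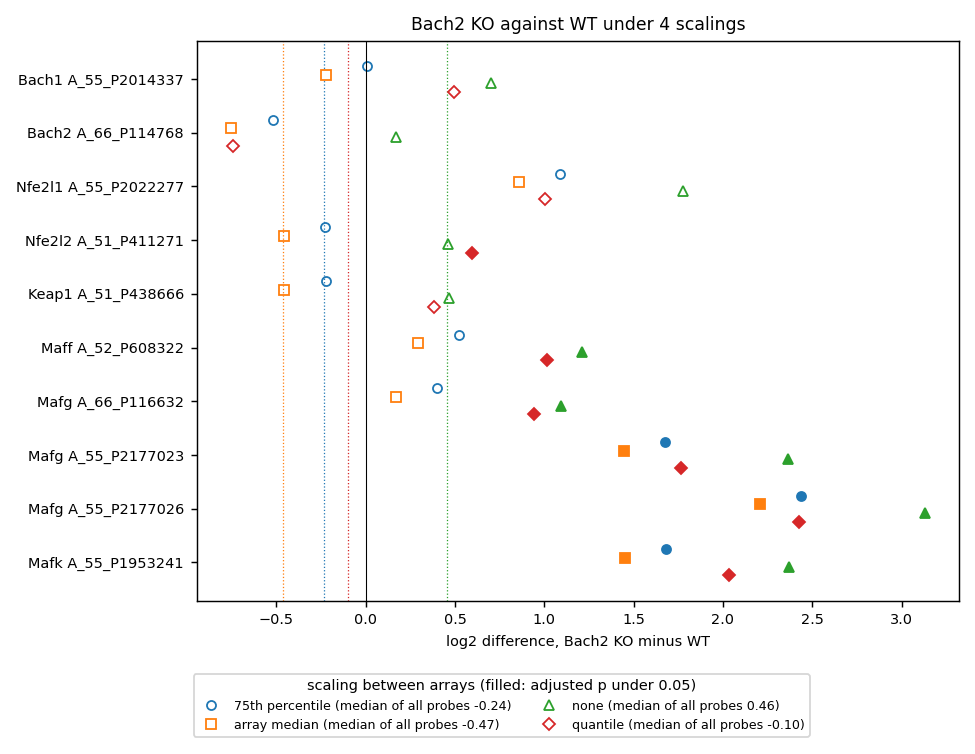
Log2 difference of Bach2 KO from WT for 10 of the 11 tested member probes under 4 scalings between arrays; dotted lines mark the median of all probes under each, and filled symbols passed at an adjusted p under 0.05. Mafk and 2 Mafg probes are filled under all 4 scalings, while Maff and the brightest Mafg probe are filled only after quantile normalization or without scaling; Maf, at 7.97 to 8.89 under the same scalings, lies outside the axis.

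Outside the 9 members, Nfe2, the CNC factor of the erythroid and platelet lineages, was lower in DKO (-1.19 ± 0.36, adjusted p = 0.0326) and in Bach2 KO (-1.39 ± 0.36, adjusted p = 0.0126) than in WT. Its levels were 1.17, 1.55 and 1.64 in DKO, 1.31, 1.83 and 0.63 in Bach2 KO, 3.06, 2.60 and 2.62 in Bach1 KO, and 2.97, 3.01 and 1.95 in WT. All DKO and Bach2 KO arrays lay below all WT arrays. The Nfe2 call was lost without scaling between arrays (adjusted p = 0.188 in DKO and 0.181 in Bach2 KO) and, in DKO, when any DKO array was left out (adjusted p = 0.0535 to 0.112) or WT replicate 1 or 2 was (0.106 and 0.0795). In Bach2 KO it was lost when either Bach2 KO replicate 3 (0.0529) or the first WT array (0.0506) was left out. Within the shared slide (0.086) and with only Bach2 KO and WT fitted (0.0506) the Bach2 KO call was also lost. The DKO call was lost after quantile normalization (0.0628), with only DKO and WT fitted (0.0542) and with no filter on dim probes (0.0544).

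A further 28 genes turn over, modify or partner Nrf2, Nrf1 and the Bach proteins, and all of them were tested. In DKO against WT 3 were higher and 4 lower, with a median of -0.15, and in Bach2 KO against WT 2 were higher and 8 lower, with a median of -0.05. In Bach1 KO against WT none passed, and none had an unadjusted p under 0.05 in limma's test. With both directions counted together, the shares sat below the backgrounds of 31.2% in DKO and 41% in Bach2 KO. The 8 of 28 that were lower in Bach2 KO were close to the background of 26.3% lower. The list's direction depended on the scaling: without scaling it had 3 higher and 2 lower in DKO and 6 higher and none lower in Bach2 KO, with medians of 0.28 and 0.64, and after quantile normalization 4 higher and 1 lower in DKO and 3 higher and 2 lower in Bach2 KO. In DKO 7 were lower without WT replicate 2 and 1 without WT replicate 1, WT replicate 3 or DKO replicate 3, and in Bach2 KO 4 were lower without WT replicate 1 or Bach2 KO replicate 3 and 3 without WT replicate 3.

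Cul3, the scaffold of the ligase that Keap1 serves, averaged 2.46 in DKO, 2.42 in Bach2 KO, 1.02 in Bach1 KO and 0.98 in WT. It was higher than in WT by 1.48 ± 0.29 in DKO (adjusted p = 0.0033) and by 1.44 ± 0.29 in Bach2 KO (adjusted p = 0.0034). Sqstm1, the autophagy receptor p62 that competes with Nrf2 for Keap1, was higher by 1.44 ± 0.40 in DKO (adjusted p = 0.0204) and by 1.65 ± 0.40 in Bach2 KO (adjusted p = 0.00844). Cul3 passed in both genotypes under every alternative run. Sqstm1 missed the threshold in DKO without WT replicate 3 (adjusted p = 0.079), DKO replicate 2 (adjusted p = 0.0735) or DKO replicate 3 (adjusted p = 0.0679). Fbxw7, a ubiquitin ligase subunit named because it completes the 3 genes that were higher in DKO, was chosen after its values were seen. It was higher in DKO than in WT by 1.54 ± 0.39 (adjusted p = 0.013), and differed from WT by -0.08 in Bach2 KO. Without DKO replicate 1 it was 1.34 higher in DKO (adjusted p = 0.0593).

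Rbck1, the ubiquitin ligase HOIL-1 that recognises heme-oxidised IRP2, fell by 1.35 on the log2 scale in Bach2 KO (adjusted p = 0.00538), with -0.66 in DKO (adjusted p = 0.121, and 0.0424 without WT replicate 2). Without scaling, Rbck1 differed from WT in Bach2 KO by -0.65 (adjusted p = 0.172). Mean levels of Rbck1 were 3.28 in DKO, 2.59 in Bach2 KO, 3.79 in Bach1 KO and 3.94 in WT.

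Of 25 known antioxidant response element targets, 24 were tested. In DKO against WT 3 were higher (Gclm, Hmox1 and Slc7a11) and 9 lower, beside 12.4% higher and 18.8% lower over all named genes, with a median of -0.72 beside -0.22. Bach2 KO against WT had 1 higher (Slc7a11) and 12 lower, beside 14.7% higher and 26.3% lower, with a median of -0.76 beside -0.28. The counts depended on the scaling. Without scaling 3 were higher and 3 lower in DKO and 3 higher and 4 lower in Bach2 KO, with medians of -0.28 and -0.07, and after quantile normalization 3 were higher and 7 lower in DKO and 3 higher and 4 lower in Bach2 KO. Within the slide that Bach2 KO and WT share, 6 were lower in Bach2 KO. In Bach1 KO against WT none passed and 7 had an unadjusted p under 0.05 in limma's test, with a median of -0.02.

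Gclm, a subunit of glutamate-cysteine ligase in glutathione synthesis, read 2.73, 2.77 and 3.28 in DKO, 1.22, 1.36 and 1.72 in Bach2 KO, 2.88, 2.65 and 3.02 in Bach1 KO, and 1.23, 1.47 and 1.33 in WT. Every array of the genotypes that lack Bach1 lay above every array of the other genotypes, the mirror image of the Bach1 probe. Gclm was higher by 1.58 ± 0.24 in DKO than in WT (adjusted p = 5e-04) and by 1.49 ± 0.24 in DKO than in Bach2 KO (adjusted p = 0.00645). In Bach1 KO against WT the difference was 1.51 ± 0.24 (unadjusted p = 4.3e-05, adjusted p = 0.0635), which passed without WT replicate 2 (adjusted p = 0.0312), without Bach1 KO replicate 2 (adjusted p = 0.0357) and after quantile normalization (adjusted p = 0.0474). The Gclm interaction was -0.02 ± 0.33. DKO against Bach2 KO missed the threshold for Gclm without scaling (1.24, adjusted p = 0.0692). Hmox1, the heme-degrading enzyme and the standard Bach1 target, was named after its values were seen; it was higher by 1.83 ± 0.33 in DKO than in WT (adjusted p = 0.00186) and by 2.28 ± 0.33 in DKO than in Bach2 KO (adjusted p = 0.0037). Both Hmox1 calls held under every alternative run. In Bach1 KO against WT Hmox1 differed by 1.68 (adjusted p = 0.147), and by 2.14 without WT replicate 3 (adjusted p = 0.00628).

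Slc7a11, the cystine importer, read 2.47, 3.21 and 2.94 in DKO, 3.06, 3.13 and 3.21 in Bach2 KO, 0.34, -0.33 and 0.60 in Bach1 KO, and -1.38, -0.87 and 0.12 in WT. It was higher than in WT by 3.58 ± 0.38 in DKO (adjusted p = 3.88e-05) and by 3.84 ± 0.38 in Bach2 KO (adjusted p = 3.18e-05), so its arrays divided by Bach2 genotype and not, as in Gclm, by Bach1 genotype. Nqo1, the quinone reductase, was lower than in WT by 3.39 on the log2 scale in DKO (-3.39 ± 0.43, adjusted p = 0.000146) and by 1.69 in Bach2 KO (-1.69 ± 0.43, adjusted p = 0.0109). In Bach2 KO the Nqo1 difference was -1.0039 without scaling (adjusted p = 0.128).

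Slc40a1, the iron exporter ferroportin, read 0.30, 0.00 and 0.56 in DKO, -1.68, -2.37 and -4.21 in Bach2 KO, 4.97, 4.76 and 4.83 in Bach1 KO, and 2.16, 3.13 and 3.33 in WT. The 4 genotypes did not overlap. Against WT it was lower by 2.58 on the log2 scale in DKO (-2.58 ± 0.54, adjusted p = 0.0047) and by 5.62 in Bach2 KO (-5.62 ± 0.54, adjusted p = 2.35e-05). DKO was above Bach2 KO by 3.04 ± 0.54 (adjusted p = 0.0123, with 0.0543 without DKO replicate 1 and 0.0544 without DKO replicate 3), Bach1 KO against WT gave 1.98 ± 0.54 (adjusted p = 0.367), and the interaction was 1.06 ± 0.76 (adjusted p = 0.552).

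The 32 proteasome genes are known in mammalian cells as targets of Nrf1, and their calls turned on the scaling. In Bach2 KO against WT 16 were lower and 1 higher, beside 26.3% lower and 14.7% higher over all named genes, with a median of -0.81 beside -0.28. After quantile normalization 2 were lower and 4 higher with a median of 0.06, and without scaling 2 were lower and 4 higher with a median of -0.12. With each array scaled on its median, 19 were lower and none higher, with a median of -1.04. Within the slide that Bach2 KO and WT share, 4 were lower. Leaving out WT replicate 1 left 6 lower, WT replicate 3 left 8, Bach2 KO replicate 1 left 9 and Bach2 KO replicate 3 left 8.

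In DKO against WT 1 proteasome gene was lower and none higher (9 had an unadjusted p under 0.05 in limma's test), beside 18.8% lower and 12.4% higher over all named genes, with a median of -0.46 beside -0.22, and with a median of 0.06 after quantile normalization and -0.04 without scaling. Without WT replicate 2 there were 9 lower, without Bach1 KO replicate 2 or DKO replicate 3 there were 5, and without WT replicate 1 or 3, or DKO replicate 1 or 2, there were 0. None passed in Bach1 KO against WT or had an unadjusted p under 0.05 in limma's test. In DKO against Bach2 KO none passed and 2 had an unadjusted p under 0.05 in limma's test, with a median of 0.31.

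Psmb1, a subunit of the catalytic core, read 4.93, 5.01 and 5.36 in DKO, 4.22, 4.61 and 4.21 in Bach2 KO, 5.53, 5.21 and 5.35 in Bach1 KO, and 5.37, 5.38 and 5.25 in WT. The Bach2 KO arrays lay below all others. It was lower by 0.99 on the log2 scale in Bach2 KO than in WT (-0.99 ± 0.19, adjusted p = 0.00293), and DKO differed from WT by -0.24 (adjusted p = 0.383). Psma2 and Psmb3, also of the core, and Psmd13, of the regulatory lid, differed from WT in Bach2 KO by -1.23, -1.38 and -1.44 (adjusted p = 0.00631, 0.00618 and 0.00662). In Bach2 KO after quantile normalization the differences were -0.35 for Psmb1, -0.27 for Psma2 and -0.46 for Psmb3 (adjusted p = 0.135, 0.12 and 0.107), and without scaling -0.30 for Psmb1 and -0.75 for Psmd13 (adjusted p = 0.327 and 0.0784). Psmb3 was the gene that was lower in DKO (-1.04 ± 0.31, adjusted p = 0.0301), with -0.46 after quantile normalization (adjusted p = 0.127).

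**Figure D4:**
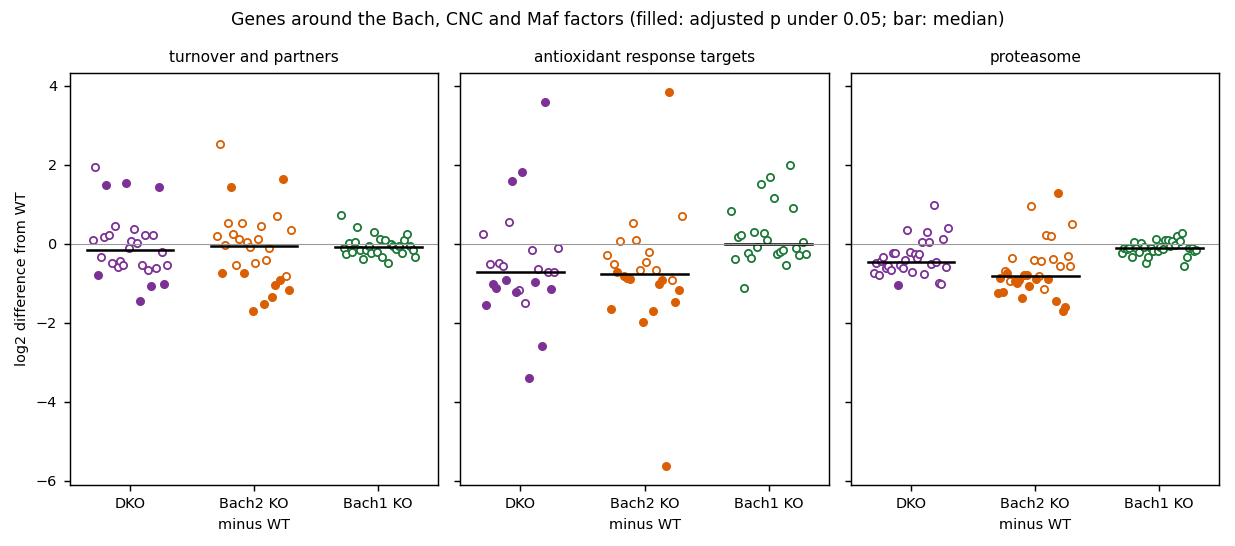
Log2 difference from WT of every tested gene in 3 lists around the Bach, CNC and Maf factors, in DKO, Bach2 KO and Bach1 KO; filled points passed at an adjusted p under 0.05 and bars are medians. Filled points below 0 are most numerous among proteasome genes in Bach2 KO (16 of 32) and antioxidant response element targets in Bach2 KO (12 of 24), and no Bach1 KO point is filled. The values are those with each array scaled on its 75th percentile; after quantile normalization 2 proteasome genes and 4 antioxidant response element targets were lower in Bach2 KO.

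Markers of several cell types also differed between the genotypes. In bulk RNA, fewer cells of a type and less RNA per cell cannot be told apart. The 11 alveolar macrophage markers were above background on every array, and their summed linear level was 371 to 584 in DKO, 390 to 542 in Bach2 KO, 866 to 1337 in Bach1 KO and 1134 to 1391 in WT. Of the 11, 7 were lower than in WT in DKO, beside 18.8% of all named genes, and 7 in Bach2 KO, beside 26.3%. Counts of called markers were not recomputed under other scalings. Siglecf, the surface lectin used to define these cells, differed from WT by -8.29 in DKO and -6.33 in Bach2 KO.

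The summed level of 6 dendritic cell markers was 16.5 to 44.0 in DKO, 31.4 to 42.8 in Bach2 KO, 0.334 to 2.05 in Bach1 KO and 0.285 to 1.64 in WT, with Xcr1 below background on every Bach2 KO, Bach1 KO and WT array. Of 5 dendritic cell markers tested, 3 were higher than in WT in DKO, beside 12.4% of all named genes, and 3 in Bach2 KO, beside 14.7%. The summed level of 5 monocyte markers was 14.9 to 18.2 in DKO, 4.37 to 6.01 in Bach2 KO, 1.98 to 3.65 in Bach1 KO and 3.44 to 5.92 in WT. Of these 5, 3 were higher and none lower in DKO than in WT, and 2 were higher and 1 lower in Bach2 KO. The same backgrounds apply, with 18.8% of all named genes lower in DKO and 26.3% in Bach2 KO. F13a1, the coagulation factor subunit, averaged a log2 level of 3.59 in DKO and 1.81 in Bach2 KO, and was below background on all 3 WT arrays. The summed level of 8 erythroid and platelet markers was 27.7 to 42.7 in DKO, 14.2 to 32.2 in Bach2 KO, 1.37 to 5.66 in Bach1 KO and 5.98 to 12.5 in WT. Of 2 of these that were tested, Pf4 was higher in DKO and Bach2 KO, and Hba-a1 was lower in DKO.

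For 9 T and NK cell markers the summed level was 7.53 to 10.74 in DKO, 13.9 to 15.6 in Bach2 KO, 79.3 to 101 in Bach1 KO and 78.3 to 147 in WT. Most of this sum came from Cd2, an adhesion receptor, so it does not describe the other markers. Cd2 averaged a log2 level of 2.42 in DKO, 3.45 in Bach2 KO, 6.48 in Bach1 KO and 6.70 in WT. Its difference from WT was -4.27 in DKO (adjusted p = 7.3e-07) and -3.24 in Bach2 KO (adjusted p = 9.31e-06). Of 6 such markers tested, Cd2 was the 1 that was lower, and 3 (Cd3d, Cd3g and Lck) were higher, in DKO and in Bach2 KO. Over all named genes 12.4% were higher and 18.8% lower in DKO, and 14.7% and 26.3% in Bach2 KO. Cd3d was below background on all 3 WT arrays and Cd3g on 2 of 3, so no size is given for their differences. Neither was above background on any Bach1 KO array. Both therefore entered the test only through DKO or Bach2 KO, where they were high, and the count of higher markers leans on that filter. The part of other cell types in the Maf, Mafg and Mafk results was not tested.

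For each member that passed in a mutant against WT, the 3 named genes with the most similar values were found by the mean absolute difference over the 12 arrays, after each gene was centred on its own mean. The nearest to Bach1 were Ogfrl1 (0.282), Itga4 (0.313) and Eif5a2 (0.314), and Bach1 itself departed from its own mean by 0.720 on average. Mafg (brightest probe) was followed most closely by Rhbdf2 (0.169), Vwf (0.185) and Ralgds (0.189), against 0.593 for Mafg itself. Ywhag (0.181) and Nek7 (0.231) were among those nearest to Mafk, against 0.566. The Maf pattern was nearest to those of Ccl2 (1.39), Fam20c (1.41) and Soat2 (1.46), against 3.79, and Ccl2 averaged 6.69 in DKO, 6.15 in Bach2 KO, -2.48 in Bach1 KO and -2.33 in WT.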

How the data were processed

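Per the file headers, the deposited scanner intensity of each spot was background-subtracted and spatially detrended by Agilent Feature Extraction (version 10.7.3.1 in the headers, 9.1 in the submitters' processing notes) and was not normalized between arrays. The deposited series matrix holds log2 values centred on each probe's median, with origin not given in the sources used here (r of 0.9999 to 1.0000 with the scanner values); it served as an alternative. Its column medians ran between -0.25 and 0.25.

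The 75th percentile was subtracted from the log2 processed signal of each array; outlier spots were left out and spots of a probe averaged. A probe was kept if some genotype had it well above background in all of its 3 mice (30878 of 55681), and 30848 with at least 2 values per genotype were tested. Probes were named through RefSeq (26413 named, 29268 not). A mean per genotype over 12 arrays was fitted with limma 3.58.1 (lmFit, eBayes with trend) in R 4.3.3 with data.table (version 1.17.8), after tests on simulated data. The members and lists were chosen with earlier results of these data known. Named were all member probes, up to 4 called genes per list with the smallest adjusted p, and the 3 nearest patterns, some of which are not reported here. Replicate numbers are not stated to pair mice, and the main fit did not pair them. Deviations of same-numbered arrays correlated between -0.16 and 0.38, over 0.1 in 6 of 18 pairs. Those of differently numbered arrays correlated between -0.26 and 0.21, over 0.1 in 5 of 36 pairs. These values do not settle whether mice were paired.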

Additional observations from a re-analysis of the deposited data

How the results depend on the processing

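Of 1961 values of single probes recomputed under alternatives, 1821 kept their direction and their side of the threshold, 43 fell below it, 23 rose past it, 73 without a call changed sign and 1 reversed with a call. That one was Nfe2l2 in Bach2 KO against WT, 0.59 after quantile normalization. The number of member genes called was 0 in Bach1 KO against WT and for the interaction under every alternative run. In DKO against WT it was 3, and 5 without WT replicate 3 and Bach1 KO replicate 3, an alternative chosen after seeing the data; leaving out 1 array gave 3 to 4. In Bach2 KO against WT it was 2, with 5 after quantile normalization, 4 without scaling, 1 with probes above background on all 12 arrays, and 2 to 3 leaving out 1 array. In DKO against Bach1 KO it was 3, with 1 when probes had to be above background on all arrays and 0 to 3 leaving out 1 array (0 without DKO replicate 3). In DKO against Bach2 KO it was 1, with 2 after quantile normalization, 0 with no filter on dim probes and 0 to 1 leaving out 1 array. In Bach2 KO against Bach1 KO it was 4, with 7 after quantile normalization, 2 with the all-array filter, 2 within the shared slide and 2 to 5 leaving out 1 array. With the replicate number as a block the counts were 3, 2, 0, 3, 1 and 4 in DKO, Bach2 KO and Bach1 KO against WT, DKO against Bach1 KO, DKO against Bach2 KO and Bach2 KO against Bach1 KO, as without it. With slide as a random block (consensus correlation 0.0269) the counts did not change either. The causes of these changes were not tested, except that a stricter filter removes Maf and Nfe2l1, which were not above background on every array. The alternatives were applied to the 4 gene lists and the list genes named after seeing the data. Of 640 list counts 553 stayed within 1.5 times the reported count and 87 did not, and of 2944 values of single list genes 122 fell below the threshold, 27 rose past it and 0 reversed with a call.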
